A study of Rattus norvegicus with 6 samples.

Results

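The ezrin family and its membrane partners were followed in GH4C1, a clonal line from a rat pituitary tumour whose cells make growth hormone and prolactin. The group comprised 8 genes: Ezr, Rdx, Msn, Nf2, Slc9a3r1 (Nherf1 in the platform annotation), Cd44, Plek and Plek2. Every probe set annotated to 1 of these symbols alone was taken, which gave 17 of 31042 non-control probe sets, and 8 of the 14217 genes that the array reads under a single symbol. The genes were chosen from an earlier reading of the same R271W against control comparison, in which some of them differed between the groups. Their differences are therefore given as a description, with confidence intervals and without p-values.

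Both groups were GH4C1 cells exposed to lentiviral particles for 16 h at a multiplicity of infection of 5 and then grown for 4 days. In 3 cultures, labelled as biological replicates, the vector carried POU1F1(R271W), a mutant of the POU-domain factor POU1F1 that the series title calls dominant negative, followed by an IRES and EGFP and driven by the PGK promoter. The other 3 cultures are labelled as controls, and the design text gives a PGK-driven EGFP vector as the control. The cells keep their own Pou1f1 gene, no step that selects transduced cells is named in the labels, and all 6 cultures come from the same line. Total RNA of each culture was read on 1 Affymetrix rat array as MAS5 signal, a summary of probe brightness with a linear scale.

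Ezrin, radixin and moesin, together called ERM proteins, are rod-like linkers between the plasma membrane and cortical actin. Their N-terminal FERM domain binds membrane receptors and scaffolds, and their C-terminal tail binds actin filaments once phosphoinositides and phosphorylation of a conserved threonine have opened the molecule. Merlin, the product of the tumour suppressor gene Nf2, has the same fold, lacks the C-terminal actin-binding site and acts upstream of the Hippo kinases. Slc9a3r1 encodes a PDZ scaffold that ERM proteins hold beneath the membrane, and Cd44 encodes a hyaluronan receptor whose tail binds ERM proteins. Pleckstrin, from Plek, is a protein kinase C substrate of platelets and leukocytes that binds phosphoinositides, and Plek2 encodes a relative found in more cell types.

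Promoter sequences are shown for the genes that carry the results, ezrin and Cd44, which differed in opposite directions, and radixin, the closest relative of ezrin with usable signal. Each is the 250 bases before the annotated start in the RefSeq annotation of the GRCr8 assembly, read 5′ to 3′ on the gene's strand. Capitals mark GCCATNTT, a YY1-like element that was searched for after these sequences had been read. Ezr lies on the minus strand (chr1:49416574-49416823), Rdx on the plus strand (chr8:61275542-61275791) and Cd44 on the minus strand (chr3:109699425-109699674).
Ezr: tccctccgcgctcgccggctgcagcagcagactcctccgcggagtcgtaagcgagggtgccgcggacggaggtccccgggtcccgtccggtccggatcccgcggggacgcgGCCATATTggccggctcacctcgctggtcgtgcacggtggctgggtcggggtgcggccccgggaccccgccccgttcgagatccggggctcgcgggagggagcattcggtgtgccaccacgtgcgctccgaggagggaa
Rdx: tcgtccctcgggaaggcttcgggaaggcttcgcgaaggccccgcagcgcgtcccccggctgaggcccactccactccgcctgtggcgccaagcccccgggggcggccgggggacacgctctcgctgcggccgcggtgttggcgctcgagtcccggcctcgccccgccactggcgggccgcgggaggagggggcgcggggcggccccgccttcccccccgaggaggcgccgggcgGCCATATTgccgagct
Cd44: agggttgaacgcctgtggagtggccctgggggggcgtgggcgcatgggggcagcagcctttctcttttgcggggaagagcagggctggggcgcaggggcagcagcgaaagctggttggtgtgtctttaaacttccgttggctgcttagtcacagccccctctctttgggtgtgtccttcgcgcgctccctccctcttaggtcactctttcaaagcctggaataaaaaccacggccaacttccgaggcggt

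RefSeq promoter windows, which run from 250 bases before to 50 after the start, were found for 7 of the 8 genes, Plek being the one without an entry. The element GCCATATT stands 139 bases before the start of Ezr and 16 bases before that of Rdx, and GCCATNTT was found on neither strand of the other 5 windows. Of all 27457 promoter windows, 7.36% hold it. TATNCAT, a POU1F1-like element, was absent on both strands from the windows of all 7 genes and is held by 9.59% of all windows. The prolactin gene Prl, a known POU1F1 target, has 1 match 24 bases before its annotated start. Whether that start is the one used in these cells is not given in the sources used here. The GC box GGGCGG, held by 34.9% of all windows, occurred in 6 of the 7, the exception being Cd44. The Ezr and Rdx windows contained 40 and 43 CpG dinucleotides and the Cd44 window 13, against a median of 7 over all windows. These matches describe the letters in the windows and say nothing about binding.

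Of the 17 probe sets, 12 passed the filter on dim signal (the 40th percentile of mean log2 signal, equal to a signal of 11.2) and entered the limma fit of all 18625 probe sets that passed. Among these 12, 4 were called higher and 2 lower at a Benjamini-Hochberg adjusted p under 0.05. Over all tested probe sets 8.57% were called higher and 7.22% lower, or 15.8% in either direction. The R271W and control arrays did not overlap for 7 of the 12, against 33.9% of all tested probe sets. Since the genes were chosen with this comparison in view, and Plek passed the filter only through its R271W arrays, nothing is read from these shares. The median log2 difference of the 12 was 0.11, and that of all tested probe sets was 0.07. Under quantile normalization or centring on the 75th percentile the same 6 probe sets were called.

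**Figure D1:**
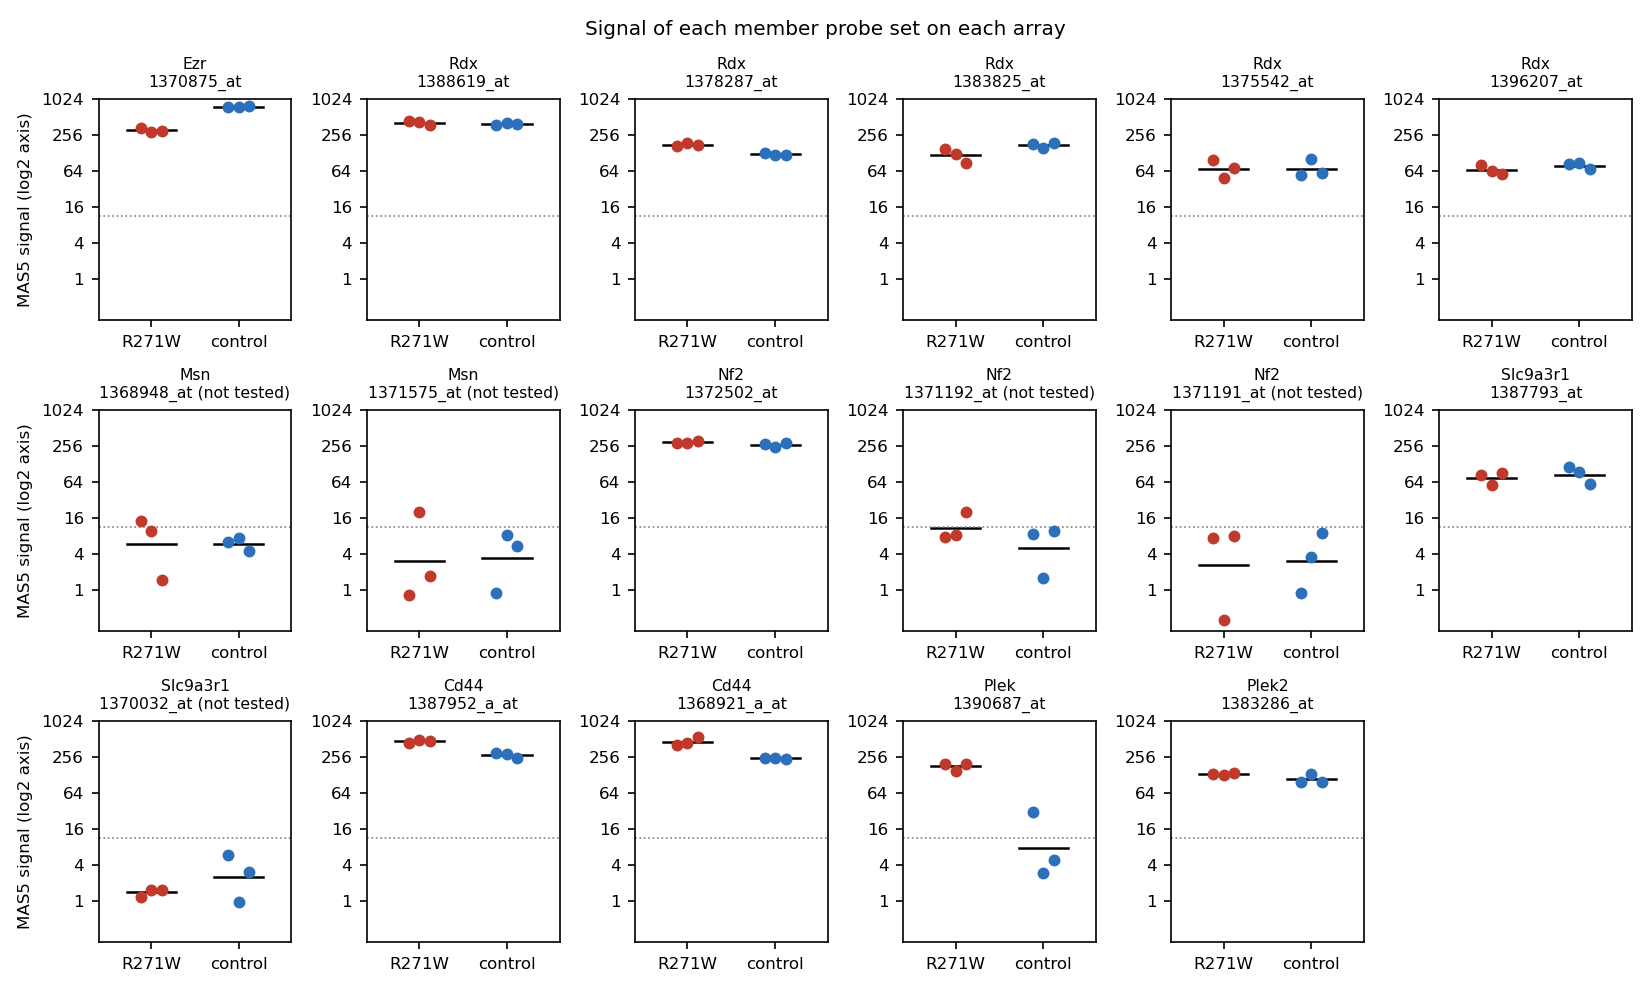
MAS5 signal of the 17 probe sets on a log2 axis, with 1 point per array (3 R271W and 3 control), bars at the mean of log2 signal, and a dotted line at the filter signal of 11.2. The Ezr arrays are separated downwards in R271W cells, the Cd44 and Plek arrays upwards, and both Msn probe sets lie mostly below the filter line.

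The arrays themselves differed between the groups in some general measures. Median signals were 25.5 to 26.9 on R271W arrays and 22.4 to 22.9 on control arrays, and centring on the median lowered every log2 difference by 0.20. The 18 hybridisation spike probe sets averaged 9.17 on R271W arrays and 8.93 on control arrays in log2 signal. The 15 poly-A spike probe sets went the other way, at 3.65 on R271W arrays and 3.86 on control arrays, with overlapping groups. The ratio of 3′ to 5′ beta-actin signal, which reads RNA integrity and labelling, was 1.86, 1.98 and 2.06 on R271W arrays and 1.81, 1.82 and 1.82 on control arrays. The part of these shifts in the results was not tested, except that the ratios within an array given below do not change when an array is scaled by 1 factor. The labelled cell type was borne out by the signal of its defining genes. Mean signals in R271W and control cells were 6338 and 6443 for Gh1, 3175 and 4332 for Prl, and 1836 and 2301 for Pou1f1. Prl and Pou1f1 were called lower in R271W cells, without overlap (log2 -0.45 and -0.33), and Gh1 was not called. Pou1f1 had 1 other tested probe set, which is not described here. Whether either of them also reads the vector's transcript is not given in the sources used here.

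Ezrin was the ERM gene with the clearest difference. Its single probe set read 333, 283 and 295 on the R271W arrays and 748, 744 and 776 on the control arrays. All R271W arrays lay far below all control arrays, and the control cultures were tightly grouped. Means were 304 ± 26.1 in R271W cells and 756 ± 17.5 in control cells (SD, n = 3 each). The log2 difference was -1.32 (SE 0.09, 95% confidence interval -1.51 to -1.13), which is a signal 2.49-fold lower in R271W cells (interval 2.19 to 2.84). Among the 18625 tested probe sets it ranked 92nd from the most negative. Over 16 alternative settings the difference ran from -1.52 to -1.27, and it was called lower in all of them. With 1 probe set, the array gave no second reading of the ezrin transcript. In cultures read in bulk, fewer cells with a transcript and less of it per cell cannot be told apart. Of 7 fibroblast markers on the array, decorin (Dcn) was the one above the filter and was called lower as well, at means of 1205 in R271W cells and 2770 in control cells. The summed signal of the 7 ran from 1196 to 1281 on R271W arrays and from 2732 to 2900 on control arrays. Most of that sum was decorin itself, since the other 6 markers lay below the filter, with differences in both directions. Among these, Pdgfra read 2.56, 4.88 and 3.13 on R271W arrays and 15.2, 11.2 and 12.8 on control arrays, without overlap. The groups overlapped for the rest, with Col1a1, Col1a2 and Lum lower in mean log2 signal in R271W cells and Col3a1 and Pdgfrb higher. The part of these markers in the ezrin difference was not tested.

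Radixin was read by 5 probe sets that did not move together. The brightest gave 437, 413 and 374 in R271W cells and 372, 409 and 388 in control cells, with overlapping groups and a log2 difference of 0.07 (SE 0.09, interval -0.13 to 0.26). A second probe set gave 164, 186 and 175 in R271W cells and 125, 119 and 116 in control cells, a log2 difference of 0.54 (SE 0.12, interval 0.28 to 0.80) without overlap. Here every R271W array was the higher one, and the fit called the probe set higher. The third one went the other way, at 151, 123 and 87.8 in R271W cells and 177, 155 and 185 in control cells. Its log2 difference was -0.55 (SE 0.18, interval -0.92 to -0.17), with R271W replicate 3 lowest and replicate 1 close to the control range. The fourth read 97.2, 48.0 and 71.6 in R271W cells and 53.4, 100.6 and 59.1 in control cells, a log2 difference of 0.02 (interval -0.58 to 0.62). The fifth read 79.0, 62.9 and 56.9 in R271W cells and 82.3, 85.4 and 68.3 in control cells, a log2 difference of -0.25 (interval -0.66 to 0.15). On both the groups overlapped.

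The opposite calls within Rdx differed in how firmly they stood. The call of the second probe set was kept under 15 of 16 alternatives and ended under median centring, where the log2 difference was 0.34. The call of the third ended in 8 of 16 alternatives: without the filter, without the intensity trend, with a replicate block, and on leaving out R271W replicate 2 or 3 or control replicate 1, 2 or 3. Without R271W replicate 3 its log2 difference was -0.34. Relative to the control mean, the log2 ratio of the second over the third within an array was 0.64, 1.12 and 1.51 on the R271W arrays and 0.02, 0.14 and -0.16 on the control arrays. These probe sets were paired after their opposite differences had been seen, so the ratio restates those differences free of array scaling and adds no support to them. Which stretch of the radixin transcript each probe set reads is not given in the sources used here, and no single direction is given for the gene.

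Moesin, the remaining ERM gene, was not measurable. Its probe sets read 1.47 to 14.0 and 0.81 to 19.95 in R271W cells and 4.50 to 7.40 and 0.87 to 8.24 in control cells. Both had mean log2 signals below the filter and were not tested, and their groups overlapped. A level this low on MAS5 arrays gives no direction.

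Merlin was read by 1 bright and 2 dim probe sets. The bright Nf2 probe set gave 285, 291 and 313 in R271W cells and 275, 246 and 283 in control cells. The R271W arrays all lay just above the control arrays, but the log2 difference of 0.15 (SE 0.10, interval -0.07 to 0.36) was not called and turned to -0.05 under median centring. The dim probe sets read 0.30 to 19.8 in R271W cells and 0.87 to 9.50 in control cells and were not tested.

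The scaffold gene Slc9a3r1 had 1 tested probe set, at 82.9, 56.4 and 90.3 in R271W cells and 112, 92.9 and 57.9 in control cells. The groups overlapped. Its log2 difference was -0.17 (SE 0.25, interval -0.70 to 0.36) and was not called. The interval includes differences of up to 1.63-fold lower and 1.28-fold higher. The other probe set read 0.94 to 5.71 over all 6 arrays and was not tested.

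Cd44, the hyaluronan receptor gene, was higher in R271W cells on both of its probe sets. The brighter one read 439, 489.7 and 475 in R271W cells and 296, 281 and 246 in control cells. The other read 408, 437 and 545 in R271W cells and 245, 246 and 237 in control cells. On each probe set all R271W arrays lay above all control arrays. The log2 differences were 0.77 (SE 0.10, interval 0.56 to 0.98) and 0.92 (SE 0.11, interval 0.69 to 1.16), which are signals 1.71-fold and 1.90-fold higher. Both were called higher under every alternative, with log2 differences of 0.57 to 0.85 and 0.72 to 1.01. Among the 18625 tested probe sets they ranked 1435th and 945th from the most positive. The CD44 transcript is spliced into many forms, and which of them these probe sets read is not given in the sources used here.

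Ratios within an array restate the differences of Ezr, Cd44 and Rdx free of array scaling, for pairs taken after those differences had been seen. Relative to the control mean, the log2 ratio of Cd44 over Ezr within an array was 1.86, 2.25 and 2.15 on the R271W arrays and 0.13, 0.06 and -0.19 on the control arrays. The mean shift in the ratio was 2.09, and the lowest R271W array lay above the highest control array. The brightest Rdx probe set over Ezr shifted by 1.38 in the same way, at 1.35, 1.50 and 1.30 on R271W arrays and -0.05, 0.09 and -0.04 on control arrays. Both ratios were higher on every R271W array than on any control array.

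**Figure D2:**
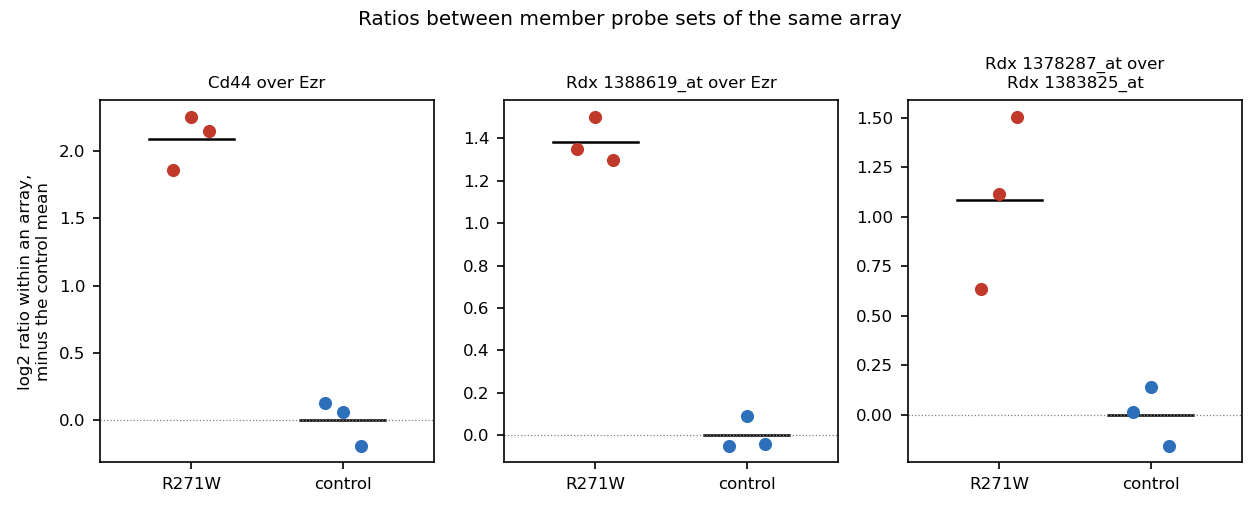
Log2 ratios between member probe sets of the same array, minus the mean of the 3 control arrays, with 1 point per array and bars at group means; the vertical axes differ between panels. The pairs were taken after the differences of their members had been seen, and the mean shifts are 2.09 for Cd44 over Ezr, 1.38 for Rdx over Ezr and 1.09 for the Rdx pair.

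Plek was bright in R271W cells and dim in control cells. Its probe set read 196, 146 and 194 in R271W cells and 30.7, 2.91 and 4.72 in control cells. The R271W arrays were well inside the measurable range, whereas 2 of the 3 control arrays were near the 20th percentile of all signals (3.72). Means were 178 ± 28.1 in R271W cells and 12.8 ± 15.5 in control cells (SD, n = 3 each), and the mean log2 signal of the control arrays alone, 2.91, was below the filter, so Plek entered the fit through its R271W level and its call there is no support for a difference. With the 2 control arrays below the filter signal set to 11.2, the R271W signal was 11.3-fold higher, a log2 difference of 3.50. That is a point value with the dim arrays raised, and it sets no lower limit on the difference. The interval from the fit ran from 3.23 to 5.90 in log2 difference, and its lower end, 9.36-fold, was below that point value. The fitted log2 difference of 4.56 has no firm size, since it moved with the dim control arrays: it was 4.44 with a floor at 3.72, 3.86 with 3.72 added to each signal, and 5.58 without control replicate 1. Without control replicate 2 or 3 it was 3.88 or 4.23. With the filter at the 60th percentile Plek was not tested.

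Because pleckstrin is best known from platelets and leukocytes, markers of blood cells were read on the same arrays. Of 12 markers 11 were on the array and 8 of those lay below the filter. The tested ones, Cd74, Itga2b and Coro1a, had higher means in R271W cells and were not called. Mean signals in R271W and control cells were 6.59 and 5.41 for the leukocyte antigen gene Ptprc, 1.34 and 1.73 for the myeloid integrin gene Itgam, and 2.85 and 7.92 for the platelet factor gene Pf4. The T cell gene Cd3e, below the filter, read 12.7, 13.2 and 9.35 on R271W arrays and 1.17, 2.70 and 0.48 on control arrays, without overlap, and the groups were also apart for Cd74. The summed signal of the 11 ran from 165 to 233 on R271W arrays and from 125 to 164 on control arrays. The sum was therefore higher on every R271W array, but only just, the lowest R271W sum being 164.6 and the highest control sum 164.1. Coro1a was its largest single part on every array, at means of 102 in R271W cells and 82.2 in control cells. The other markers together exceeded Coro1a on R271W replicate 1 (Coro1a 100.2 of 233) and on control replicate 2 (57.04 of 125). Coro1a itself overlapped between the groups. No marker was listed at 0, and the part of blood cell markers in the Plek difference was not tested.

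Plek2 read 134, 127 and 138 in R271W cells and 98.5, 130.0 and 97.3 in control cells. Control replicate 2 lay within the R271W range and the other controls below it. The log2 difference was 0.31 (SE 0.15, interval -0.01 to 0.62) and was not called, and under median centring it was 0.11.

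**Figure D3:**
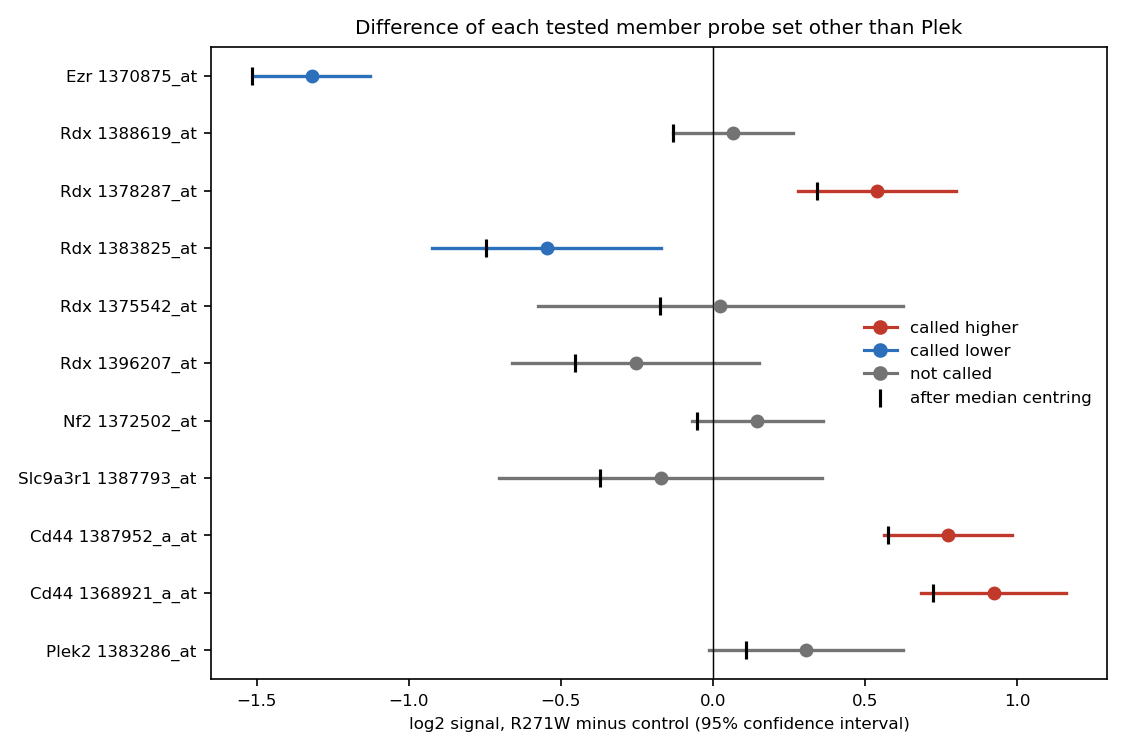
Log2 difference in signal, R271W minus control, of the 11 tested probe sets other than Plek, with 95% confidence intervals from the limma fit (3 arrays per group); ticks give the value after median centring. Ezr lies at -1.32 and the Cd44 probe sets at 0.77 and 0.92, while Rdx is spread from -0.55 to 0.54.

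The genes with the profiles most like Ezr, Cd44 and Plek were found by the root mean square difference over the 6 arrays of log2 signal minus the control mean, among 9980 other genes. For Ezr these were P4ha2 (0.07), Dcn (0.11) and Creld2 (0.12), at log2 differences of -1.31, -1.20 and -1.19. For Cd44 they were Fam13b (0.05), Pggt1b (0.06) and Adam22 (0.07), at 0.78, 0.71 and 0.80. A small distance of this kind requires a similar log2 difference, so the likeness of these differences follows from how the genes were found. The nearest to Plek were Acer1 (1.01), Tox (1.22) and Lmod3 (1.52), at 5.53, 3.11 and 3.16. Their mean signals in control cells, 7.25, 5.74 and 5.81, lay below the filter signal, so these differences have no firm size either. The control arrays of Plek themselves deviated by 2.03, -1.37 and -0.67 from their mean on the log2 scale, and nothing is read from the size of the distances around it.

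Genes that work with the members were then read from 6 lists set up by function, with each gene represented by its brightest tested probe set. Of 85 distinct genes tested, 12 rose and 5 fell, against 9.87% higher and 8.98% lower among all 10143 genes tested. The median log2 difference of the 85 was 0.17 and that of all genes 0.06. Under median centring 5 rose and 10 fell, so the balance of directions depended on scaling.

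Among partners and regulators of ERM proteins, 2 of 10 tested genes fell and 0 rose at the adjusted threshold in limma, with 1 positive at an unadjusted p under 0.05 and a list median of 0.09. Rock2, a kinase gene, had signals of 262 ± 26.1 in R271W cells and 388 ± 13.2 in control cells (SD, n = 3 each). Its log2 difference was -0.57 (SE 0.10, limma adjusted p = 0.00167), and of its 3 other tested probe sets 1 also fell (-0.46) and 2 were not called (-0.25 and -0.42). Rhoa, a small GTPase gene, fell to 1257 ± 29.9 in R271W cells, against 1499 ± 28.9 in control cells (log2 -0.25, limma adjusted p = 0.018), and its call ended under 7 of 16 alternatives, namely quantile normalization, no intensity trend, the replicate block, and leaving out R271W replicate 1 or any 1 control array. Under quantile normalization its log2 difference was -0.13. The other Rhoa probe set also fell, by 0.29 on the log2 scale.

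Other FERM domain genes numbered 22 tested, of which 4 rose and 1 fell, with a median of 0.26. Ptpn13, a FERM-containing tyrosine phosphatase gene, had signals of 191 ± 17.3 in R271W cells and 92.0 ± 12.6 in control cells, a log2 difference of 1.06 (SE 0.14, limma adjusted p = 0.00027). Fermt2, which encodes the integrin activator kindlin-2, had signals of 289 ± 19.6 and 173 ± 5.80 in R271W and control cells, a log2 difference of 0.74 (limma adjusted p = 0.000349). A dimmer Fermt2 probe set read -0.25 and was not called. Ptpn3, another such phosphatase gene, fell by 0.45 on the log2 scale (limma adjusted p = 0.00932), and its second probe set fell by 0.43. The Ptpn3 call ended without the intensity trend. Under median centring 2 of the 22 rose and 1 fell.

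In the Hippo pathway, which merlin feeds, 2 of 14 tested genes rose and 1 fell, with a median of 0.14. Sav1, the scaffold of the Hippo kinase complex, had signals of 499 ± 40.5 in R271W cells and 865 ± 8.61 in control cells, a log2 difference of -0.80 (SE 0.08, limma adjusted p = 3.34e-05), and its second probe set fell by 0.91. The kinase genes Stk3 and Lats2 rose by 0.53 and 0.78 on the log2 scale (limma adjusted p = 0.01 and 0.0143). Neither kinase call held under median centring, where 0 rose and 2 fell, and that of Lats2 also ended without the intensity trend, without R271W replicate 2 and without control replicate 1 or 2.

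Of the genes of hyaluronan and CD44 handling, 11 of 17 on the array lay below the filter. Of the 6 tested 1 fell and 0 rose at the adjusted threshold in limma, with 0 positive at an unadjusted p under 0.05 and a median of 0.11. Esrp1, a splicing regulator known to control CD44 exon choice in epithelial cells, had signals of 558 ± 42.8 in R271W cells and 699 ± 27.0 in control cells (log2 -0.33, SE 0.08, limma adjusted p = 0.0167). Its call ended without R271W replicate 1 or 2, without control replicate 1 or 2 and without the intensity trend. Hyal2, a hyaluronidase gene, had a log2 difference of 0.24 (limma adjusted p = 0.248).

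Of 9 tested genes of the protein kinase C family and its PKN relatives, 1 rose and 0 fell at the adjusted threshold in limma, with 0 negative at an unadjusted p under 0.05 and a median of 0.16. Pkn3 had signals of 46.9 ± 18.5 in R271W cells and 19.1 ± 2.31 in control cells (log2 1.22, SE 0.36, limma adjusted p = 0.0328), a call that ended in 9 of 15 alternatives. Prkch had a log2 difference of 0.50 that was not called (limma adjusted p = 0.059). Under median centring 0 of the 9 rose and 1 fell.

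Among 24 tested genes of cortical actin and phosphoinositide anchoring, 5 rose and 0 fell at the adjusted threshold in limma, with 2 negative at an unadjusted p under 0.05 and a median of 0.16. Sptan1, the alpha spectrin of the membrane skeleton, had signals of 535 ± 46.0 in R271W cells and 336 ± 18.5 in control cells, a log2 difference of 0.67 (SE 0.09, limma adjusted p = 0.000316). Marcksl1, which encodes a membrane-bound protein kinase C substrate, had signals of 1123 ± 16.4 and 810.4 ± 25.1 in R271W and control cells, a log2 difference of 0.47 (limma adjusted p = 0.000525). Add3, an adducin gene of the spectrin-actin junction, rose by 0.85 on the log2 scale (limma adjusted p = 0.00211). Its other, dimmer probe set had a difference of 0.49 that was not called. These 3 genes passed under all 16 alternatives, whereas under median centring the list as a whole had 3 that rose and 3 that fell.

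**Figure D4:**
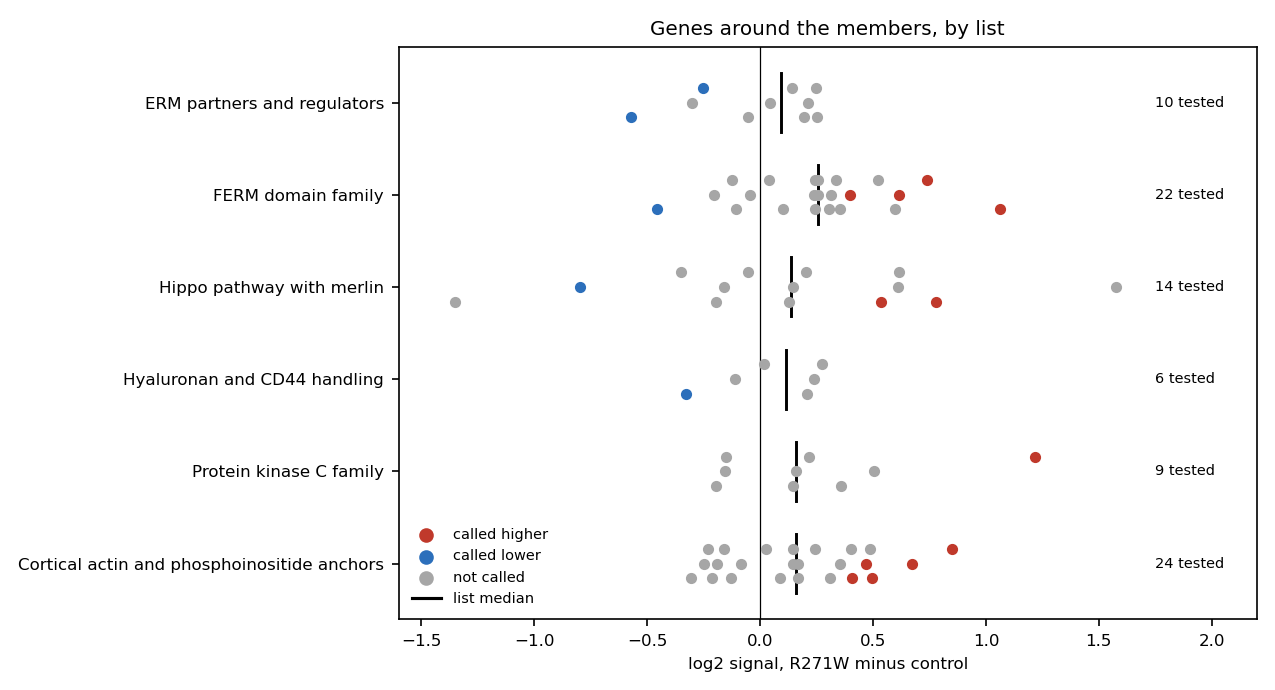
Log2 difference in signal, R271W minus control, of each tested gene in the 6 lists (1 point per gene, 3 arrays per group), with bars at list medians and colours for calls at an adjusted p under 0.05. The 2 ERM regulators called lower, Rock2 and Rhoa, stand left of 0, and all 5 called anchor genes stand right of it.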

How the data were processed

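The 6 arrays, 3 R271W and 3 control, were grouped by their labels. The deposited values are intensity values, linear MAS5 signals made by the authors per the submitters' processing notes. For MAS5, version and settings are not given in the sources. Such signals scatter widely when dim, and the number of arrays limits precision. Gene names came from the platform annotation, matched by Entrez ID to RefSeq genes of GRCr8: of 31042 non-control probe sets, a single symbol was given for 20826 and several for 436, and 9780 are unnamed here.

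The log2 of each signal, with no added scaling, was tested across all 18625 probe sets that passed the filter at the 40th percentile with limma 3.58.1 in R 4.3.3 (lmFit; eBayes with trend; two-sided; groups as the only term; Benjamini-Hochberg threshold 0.05). The script was tested on simulated data. Figures used matplotlib 3.10.9.

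The members and lists were chosen with earlier results of these data known, and a reading of GCCATNTT was added after the promoters were seen. Named were all member probe sets, and in each list the 3 called genes with the smallest p, or the 2 smallest where fewer were called; for Ezr, Cd44 and Plek, the 3 nearest profiles. The markers were named after their values were seen. Marker lists for fibroblasts, endothelium and other pituitary cells had 1 of 7, 1 of 5 and 2 of 6 genes above the filter, and of these only decorin, called lower, was called. Alternatives covered scaling, filter, floor, offset, eBayes prior, a replicate block and each array left out. The labels call the replicates biological.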

Additional observations from a re-analysis of the deposited data

How the results depend on the processing

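Ezr and Cd44 kept their direction and their call under every alternative. Plek, which passed the filter only through its R271W arrays, ranged from 3.86 to 5.58 in log2 difference over its 15 alternatives. Member probe sets called higher, Plek included, numbered 4 under the 16 alternatives, except 3 under median centring and where Plek was untested. Those called lower numbered 1 rather than 2 without the filter, without the intensity trend and with the replicate block, and 1 to 2 on leaving out single arrays, the one lost being the third Rdx probe set each time. With the replicate block 2479 probe sets were called. Deviations from the group means of same-numbered arrays correlated at -0.0017, 0.010 and -0.020, so no deviation shared by number was seen. Whether same-numbered cultures were set up together cannot be told from these values.

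Over all probe sets, 1065 were called without the intensity trend (634 higher, 431 lower), against 2940 (1596 higher, 1344 lower). Median centring gave 730 higher and 3132 lower. Leaving out single arrays gave 2042 to 2673 calls, 1000 (without R271W replicate 2) to 1346 higher and 945 to 1327 lower.

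Of the list genes, 17 were called (12 higher, 5 lower). Without the intensity trend 8 were called (6 higher, 2 lower), and median centring gave 5 higher and 10 lower. Single arrays left out gave 11 to 17 calls, 7 to 11 higher and 3 to 6 lower, the lowest totals being 11 without R271W replicate 2 and 11 without control replicate 2.

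Directions turned for uncalled values only. The brightest Rdx probe set read -0.017 and -0.13 under 75th percentile and median centring, and -0.035 as the mean over the gene's 5 probe sets. The fourth Rdx probe set read -0.059, -0.17 and -0.092 under 75th percentile centring, median centring and quantile normalization, and -0.22 to 0.30 with single arrays left out (-0.22 without R271W replicate 1, -0.15 without control replicate 1 and -0.08 without control replicate 3). Nf2 read -0.053 under median centring, and Slc9a3r1 read 0.034 without R271W replicate 2 and 0.032 without control replicate 1, within a range of -0.44 to 0.034. The cause of these shifts was not tested beyond the construction of each setting. Signals below about 11 gave no usable direction for Msn, the dim Nf2 and Slc9a3r1 probe sets, or many list genes.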
